A study of Mus musculus with 2 samples.

Results

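The 9 genes described here encode receptors that bring lymphocytes into the intestine or hold them there: the integrin chains Itgb7, Itgae, Itga4 and Itga1, the chemoattractant receptors Ccr9, Gpr15 and Ccr10, the selectin ligand Selplg and the retention receptor Cd69. They were taken by symbol from the 54838 genes of the count tables, and all 9 were found. UMIs (unique molecular identifiers, each standing for 1 captured RNA molecule) were counted in sorted live immune cells of mouse intestine, in 1 single-cell library labelled WT and 1 labelled Dpf2 KO. Mice of both genotypes had received 10 Gy of X-rays, so no unirradiated group was analysed here. Dpf2 encodes a subunit of BAF chromatin remodelling complexes. The deleted part of Dpf2, the driver of the deletion, the strain and age, the number of mice, the time after irradiation and the GFP or tdTomato gate that went into each library are, in the sources used here, not given. With 1 library per genotype there is no replicate and no test: each 95% interval covers counting error only, and genotype, library and sort cannot be told apart.

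Lymphocytes leave blood vessels of the intestine when the α4 chain (Itga4), paired with the β7 chain (Itgb7), binds the endothelial addressin MAdCAM-1. CCR9 answers the small intestinal chemokine CCL25, CCR10 answers the epithelial chemokine CCL28, and GPR15 guides T cells mainly to the large intestine. Once in the tissue, the αE chain (Itgae, CD103), also paired with β7, binds E-cadherin on epithelial cells, the α1 chain (Itga1, CD49a) binds collagen, and CD69 holds cells in place by taking the egress receptor S1PR1 off the surface. Retinoic acid made by gut dendritic cells is known to induce the α4β7 and CCR9 programme, and TGF-β to induce CD103.

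Itgb7, the chain shared by the α4β7 and αEβ7 receptors, lies on GRCm38 at chr15:102215995-102231944 (minus strand). Ccr9 spans chr9:123678439-123784330 (plus strand) and Itga4 spans chr2:79255426-79333123 (plus strand). Start regions are shown for these 3 genes, which encode the α4β7 and CCR9 gut entry receptors on which most of the results turn. Each runs from 250 bases before to 30 bases after the start in RefSeq (GRCm38.p6), 5′ to 3′ on the gene's strand: Itgb7 is chr15:102231906-102232185, Itga4 is chr2:79255176-79255455 and Ccr9 is chr9:123766961-123767240. Capitals mark matches to a RUNX core (TGTGGT), an ETS core (GGAAGT), a retinoic acid receptor half-site (AGGTCA) or an AHR core (GCGTG), each searched on both strands; no searched motif contains another.
Itgb7: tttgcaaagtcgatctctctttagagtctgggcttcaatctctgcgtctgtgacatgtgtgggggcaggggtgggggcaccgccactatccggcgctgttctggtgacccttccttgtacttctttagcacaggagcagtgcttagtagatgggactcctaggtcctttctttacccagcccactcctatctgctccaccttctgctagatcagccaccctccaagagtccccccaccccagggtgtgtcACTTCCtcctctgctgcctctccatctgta
Itga4: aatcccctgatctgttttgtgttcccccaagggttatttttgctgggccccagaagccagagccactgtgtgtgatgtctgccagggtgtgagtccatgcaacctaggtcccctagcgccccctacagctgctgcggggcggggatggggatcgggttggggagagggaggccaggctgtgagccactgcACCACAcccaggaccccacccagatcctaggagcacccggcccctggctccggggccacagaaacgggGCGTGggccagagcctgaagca
Ccr9: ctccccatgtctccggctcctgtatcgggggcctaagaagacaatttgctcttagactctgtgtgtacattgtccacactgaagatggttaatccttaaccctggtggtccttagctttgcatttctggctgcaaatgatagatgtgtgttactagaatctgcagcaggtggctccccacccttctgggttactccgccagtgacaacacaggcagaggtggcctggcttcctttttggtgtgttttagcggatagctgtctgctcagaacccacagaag
The Itgb7 stretch holds an ETS match on the reverse strand at bases 251 to 256, counted from its 5′ end. In the Itga4 stretch a RUNX match lies on the reverse strand at bases 191 to 196 and an AHR match on the forward strand at bases 259 to 263. No match was found in the Ccr9 stretch. Of 32851 RefSeq start regions of the same length, 15.6% hold the RUNX core, 22.3% the ETS core, 15.3% the retinoic acid receptor half-site and 30.8% the AHR core. Entries were at hand for 5 of the 9 genes, and none of the 5 holds the half-site. These matches are descriptions of letters, not of bound sites.

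The other 6 genes lie at chr11:73090583-73147446 (Itgae), chr13:114953096-115101964 (Itga1), chr16:58717433-58719070 (Gpr15), chr5:113818536-113832644 (Selplg), chr6:129267325-129275436 (Cd69) and chr11:101172997-101175443 (Ccr10). In the annotation used here, Itgb7, Selplg and Cd69 overlap no other gene. Genes on the same strand overlap Itga1 (Pelo, Gm49395) and Ccr9 (Gm17200, Gm17020). Genes on the opposite strand overlap Itgae (Haspin), Itga4 (Cerkl), Gpr15 (Cpox) and Ccr10 (Cntnap1), and also Itga1 (Gm10734) and Ccr9 (Slc6a20a, Lztfl1, Gm10052, AC165425.1). Whether the counting used strand and intronic reads was not stated, so reads from these neighbours could be shared.

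After filters, 10259 WT and 8265 KO cells were kept, with a median of 4543 and 4112 UMIs per cell. In all, 24 barcodes occurred in both files and were kept in both. Levels are given throughout as UMIs of a gene per 1000000 UMIs, all cells of a class and library being added up. Dpf2 stood at 33.3 in WT and 19.6 in KO over all cells (ratio 0.589, 0.543–0.638), and at 39.9 and 17.9 in T cells (0.447, 0.370–0.537), so Dpf2 RNA was lower in the library labelled KO but still present. T cells made up 36.5% of WT cells (3743) and 20.3% of KO cells (1675), B cells 10.7% and 29.3%, and stromal cells, which a sort of immune cells would not be meant to hold, 3.66% and 0.871%. RNA from other cells was found in T cells in differing amounts. All markers of 7 such types had UMIs there, and the summed level of the B cell markers was 108 in WT and 268 in KO, of Paneth cell markers 6.09 and 96.8, of plasma cell markers 5964 and 4399, of monocyte markers 732 and 534, of fibroblast markers 52.0 and 11.2, of epithelial markers 10.8 and 18.1 and of neutrophil markers 189 and 261. Their part in the results below was not tested. Cells with Xist and no Y-linked UMI and cells with the reverse were present in both libraries (1363 and 1362 T cells in WT, 715 and 394 in KO), and ratios for each kind are given beside lymphocyte results where their intervals did not overlap or where a 1.5-fold difference was lost in either kind.

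KO:WT ratios are ratios of these levels. Genes with 100 or more UMIs in a class, both libraries together, and detected in 5% or more of its cells in either library were eligible. A gene counted as lower or higher when the fold was at least 1.5 after 10 had been added to both levels. In T cells 7 of the 9 receptors were eligible, 2 were lower in KO (Itgb7 and Ccr9) and none was higher. The same fold was passed by 4.30% of the 7401 eligible genes downwards and 2.69% upwards. On that log2 scale the median of the 7 was -0.37 and the median of all genes -0.00, and 6 of the 7 lay below 0.

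**Figure D1:**
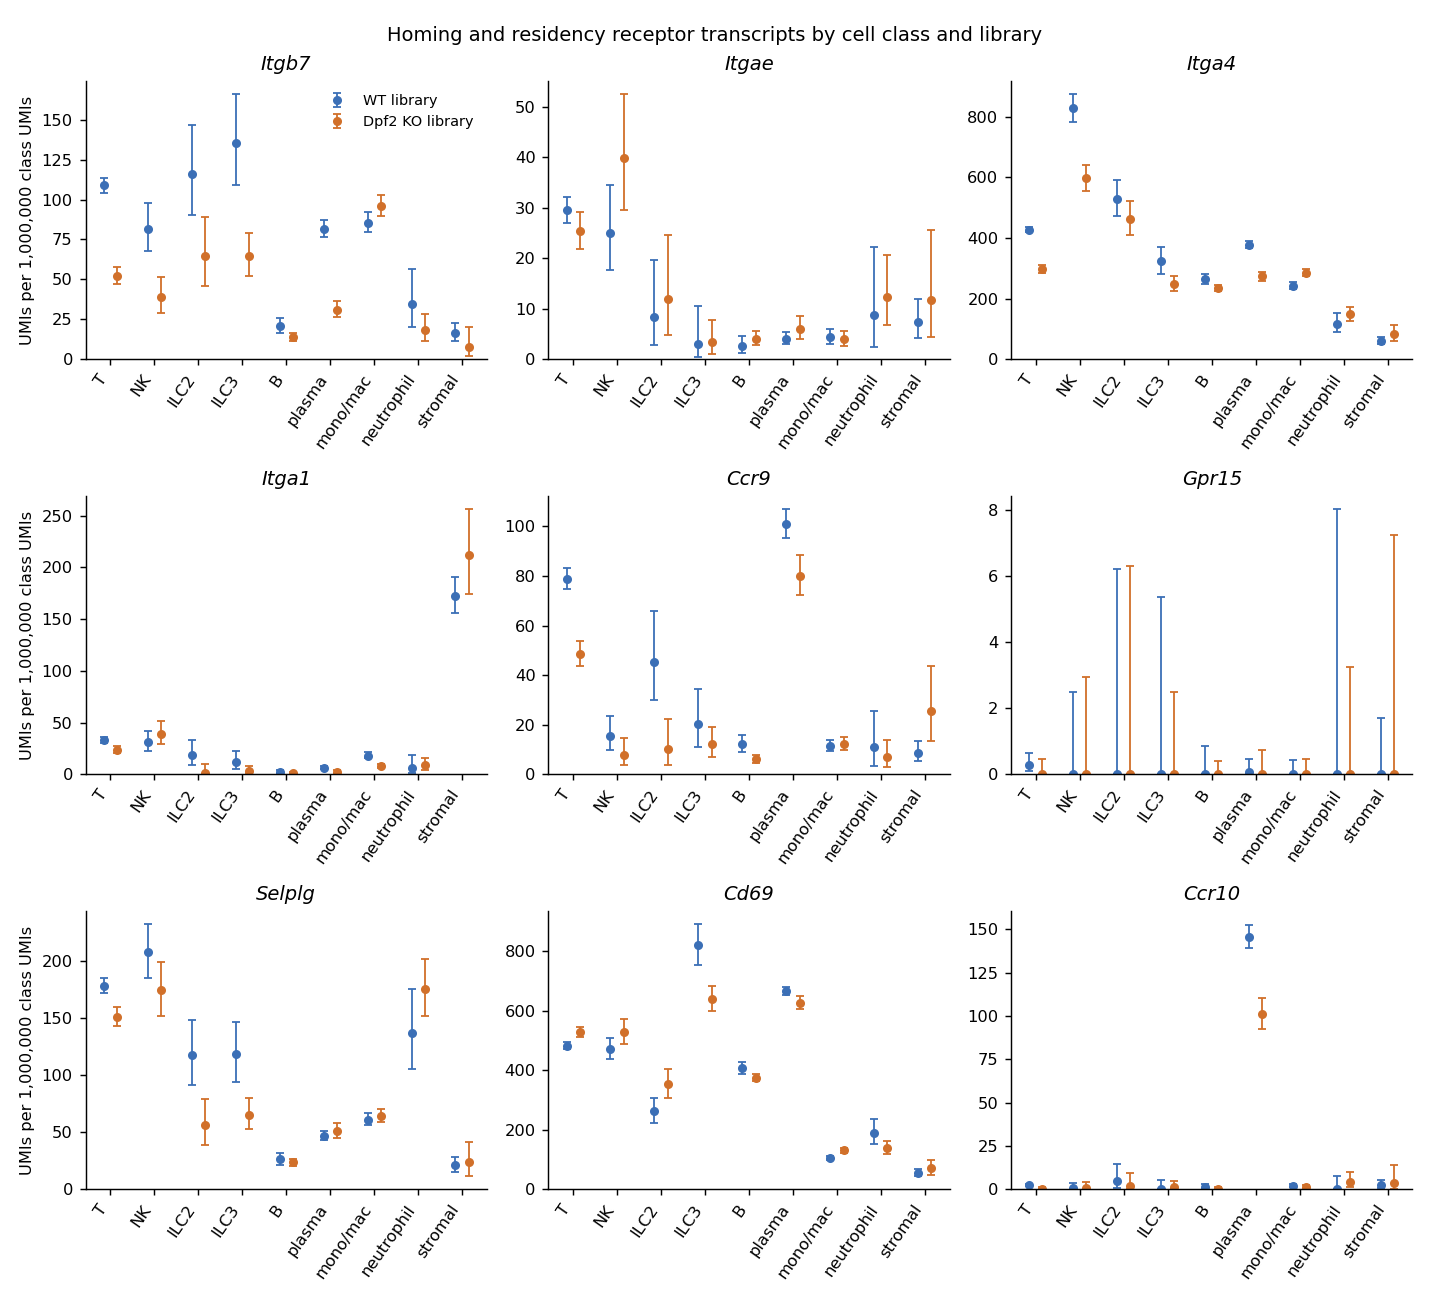
Level of each of the 9 receptors (vertical axis, UMIs per 1000000 class UMIs) in the WT (blue) and KO (orange) library for 9 cell classes, with points for levels and bars for 95% Poisson intervals; each panel has its own scale. The T cell points of Itgb7 stand at 109 and 52.1, Ccr10 is high in plasma cells alone among these classes (146 and 101), and Itga1 is highest in stromal cells (173 and 212).

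Itgb7, the β7 chain, had lower levels in KO in T, NK, ILC2, ILC3 and plasma cells, and in B cells, where levels were low and the 1.5-fold threshold was not reached. It stood at 109 (1947 UMIs) in WT T cells and 52.1 (406 UMIs) in KO T cells. The ratio was 0.479 (0.429–0.533), and the 2 intervals of the levels (104–114 and 47.2–57.5) did not overlap. A summed level cannot tell fewer expressing cells from less RNA per cell. The share of T cells with an Itgb7 UMI was 33.0% in WT and 18.9% in KO at median depths of 4087 and 4154 UMIs. After thinning each cell to 1000 UMIs, which left out 75 WT and 40 KO cells, 9.43% (8.51–10.4) and 4.10% (3.19–5.18) kept a UMI. In neutrophils, taken with stromal cells as the measure of free RNA, these thinned shares were 1.89% and 0.935% (median depths 1473 and 1749 UMIs), and in stromal cells 1.65% and 2.86% (5301 and 5066.5 UMIs). The T cell shares lay above those of both classes in each library, except that the interval of KO stromal cells (0.348–9.94) spanned the KO T cell share.

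T subsets were compared where each library held at least 50 cells. Th17-like cells (848 and 646 cells) had Itgb7 at 106 in WT and 47.7 in KO (0.450, 0.371–0.542). Th1-like cells (816 and 195) had 77.0 and 27.5 (0.357, 0.229–0.534). CD8-like cells (984 and 274) had 105 and 48.1 (0.457, 0.339–0.605), but different subclusters held most of that class: a Ly6c2-led subcluster had 607 WT and 32 KO cells, and a Klrd1- and Cd8a-led subcluster, number 4, had 377 and 242. By kind, the class held 95 WT and 125 KO Xist-only cells, and 622 and 40 Y-linked-only cells. In WT the Ly6c2-led subcluster held 43 Xist-only and 421 Y-linked-only cells. The Itgb7 ratio of the class was 0.381 (0.219–0.648) for Xist-only and 0.473 (0.202–0.945) for Y-linked-only cells. How far the CD8-like values of any receptor reflect the differing kinds was not tested. Within subcluster 4 the levels were 98.3 and 41.6 (0.424, 0.294–0.599), close to the ratio of the whole class. In the Ly6c2-led subcluster they were 109.8 and 99.5, the latter from 13 UMIs (0.906, 0.476–1.58).

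Regulatory-like cells (286 and 134 cells) were named from a list of regulatory T cell markers. Foxp3 was among the leading genes of their subcluster 7 (247 and 119 cells) but not of their subcluster 11 (39 and 15). Together they had the highest Itgb7 level of the named non-dividing subsets in both libraries, 153 and 106, with a ratio of 0.695 (0.533–0.899). Split by cell kind, the ratio of Xist-only cells was 0.412 (0.233–0.691) and that of Y-linked-only cells 1.13 (0.682–1.83). Over T cells with a Foxp3 UMI (148 and 53 cells) it was 0.856 (0.598–1.21). Naive or central memory-like cells (201 and 304), with Lef1 and Ccr7 among their leading genes, had 64.6 and 45.5, with an interval that spans 1 (0.704, 0.454–1.09). The unnamed subcluster 6 (328 and 61 cells) had 77.6 and 63.5 (0.817, 0.469–1.35). Dividing T cells, with 206 WT and 26 KO cells too few to be compared, had 169 and 72.2. Subset shares differed between the libraries: the Ly6c2-led CD8-like subcluster was 16.2% of WT T cells and 1.91% of KO T cells, naive or central memory-like cells were 5.37% and 18.1%, and Th17-like subcluster 2, led by Tnfsf11 and Hspa1a, 7.45% and 22.5%. With KO subset shares held at those of WT, the Itgb7 ratio in T cells was 0.547 in place of 0.479.

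**Figure D2:**
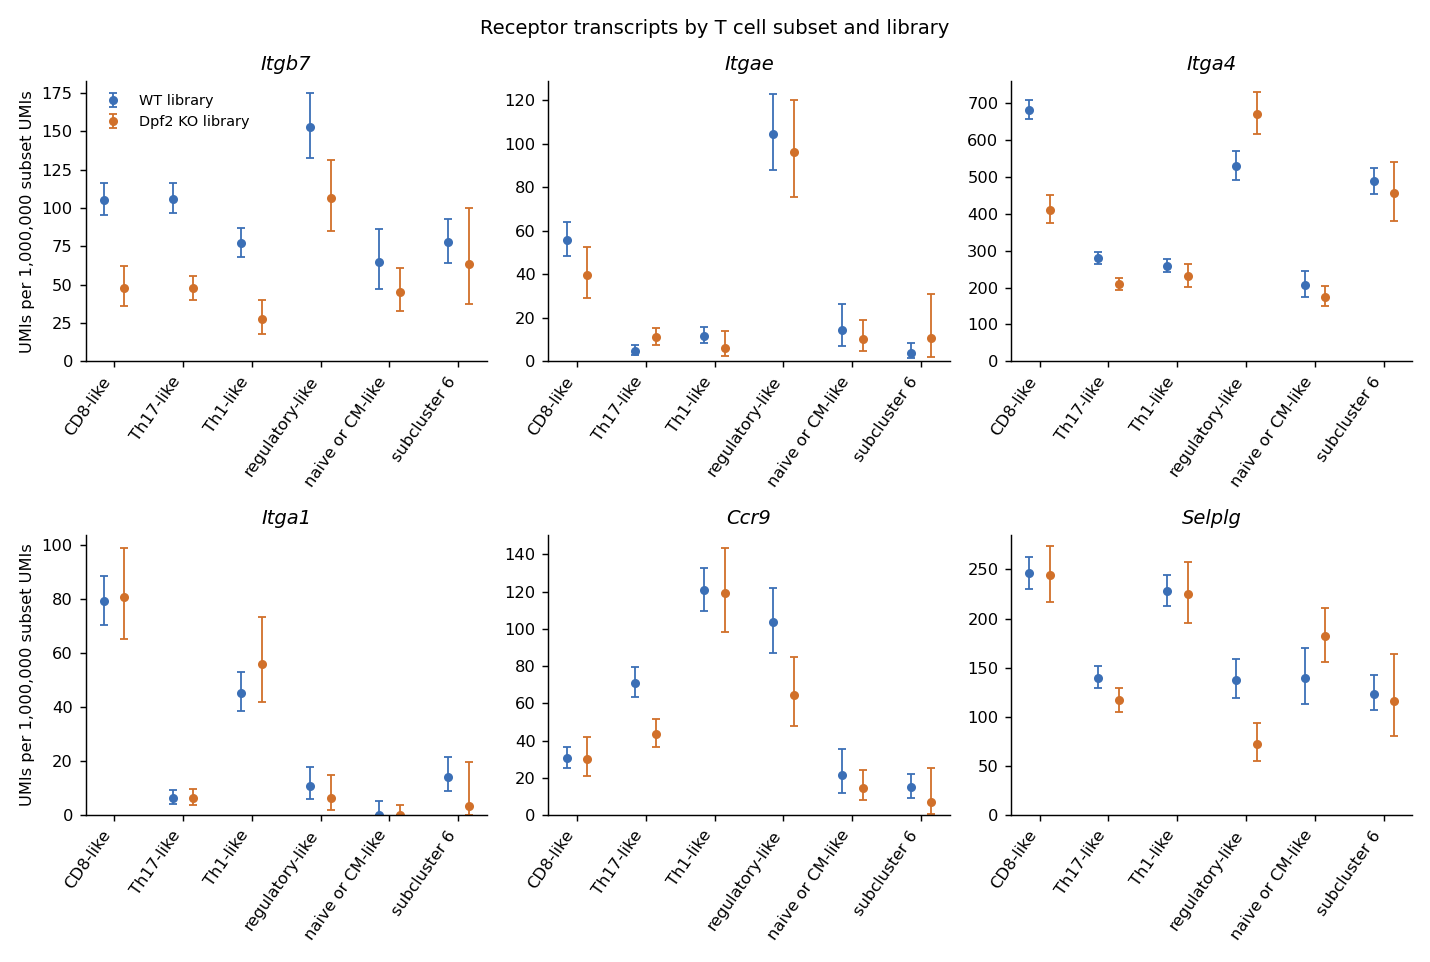
Level of Itgb7, Itgae, Itga4, Itga1, Ccr9 and Selplg (vertical axis, UMIs per 1000000 UMIs of the subset) in 6 T subsets of the WT (blue) and KO (orange) library, with 95% Poisson intervals. Itgb7 is lower in KO in each of the 6, Ccr9 is at 121 and 119 in Th1-like cells, and Itgae is high in CD8-like and regulatory-like cells.

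Innate lymphocytes and plasma cells also had less Itgb7 RNA in the KO library, relative to their total. Natural killer (NK) cells had 81.9 in WT and 39.0 in KO (0.477, 0.335–0.669), group 2 innate lymphoid cells (ILC2) 116 and 64.8 (0.559, 0.366–0.842) and group 3 cells (ILC3) 136 and 64.6 (0.477, 0.355–0.641). For ILC2 the Itgb7 ratio was 0.295 (0.114–0.678) among Xist-only cells and 0.877 (0.452–1.68), below the 1.5-fold threshold, among Y-linked-only cells, from 8 and 19 KO UMIs. The NK class was mixed: of its 4 subclusters, number 0 was led by NK genes, number 1 (75 and 77 cells) met only the ILC3 name, number 2 (52 and 57) only the CD8 T cell name, and number 3 (42 and 36) none. In subclusters 2 and 3, 82.6% and 83.3% of cells passed a T cell gate. Without all cells passing it, an alternative added after the data were seen, the log2 ratio of Itgb7 in NK cells was -0.93 in place of -0.91. Plasma cells, which secrete antibody into the gut, had 81.6 (976 UMIs) and 30.9 (152 UMIs), a ratio of 0.379 (0.317–0.450). For Xist-only plasma cells the ratio was 0.300 (0.206–0.425), and for Y-linked-only ones 0.401 (0.265–0.588). B cells had low levels, 20.7 and 13.6 (0.658, 0.498–0.874), which lay between those of stromal cells and neutrophils given below, the free RNA classes. Ratios lay near 1 in most myeloid groups: monocytes or macrophages had 85.6 and 96.1 (1.12, 1.01–1.24), dendritic cluster 6 had 129.9 and 119 (0.919, 0.821–1.03) and dendritic cluster 17 had 141 and 155 (1.10, 0.929–1.29). Exceptions were neutrophils, given next, and monocyte cluster 14 (91 and 226 cells), where 9 and 15 UMIs gave 26.0 and 12.7 (0.488, 0.2–1.27). In the free RNA classes the levels were 34.8 and 18.5 for neutrophils (0.532, 0.264–1.09) and 16.5 and 7.86 for stromal cells (0.476, 0.123–1.33), with intervals that span 1.

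**Figure D3:**
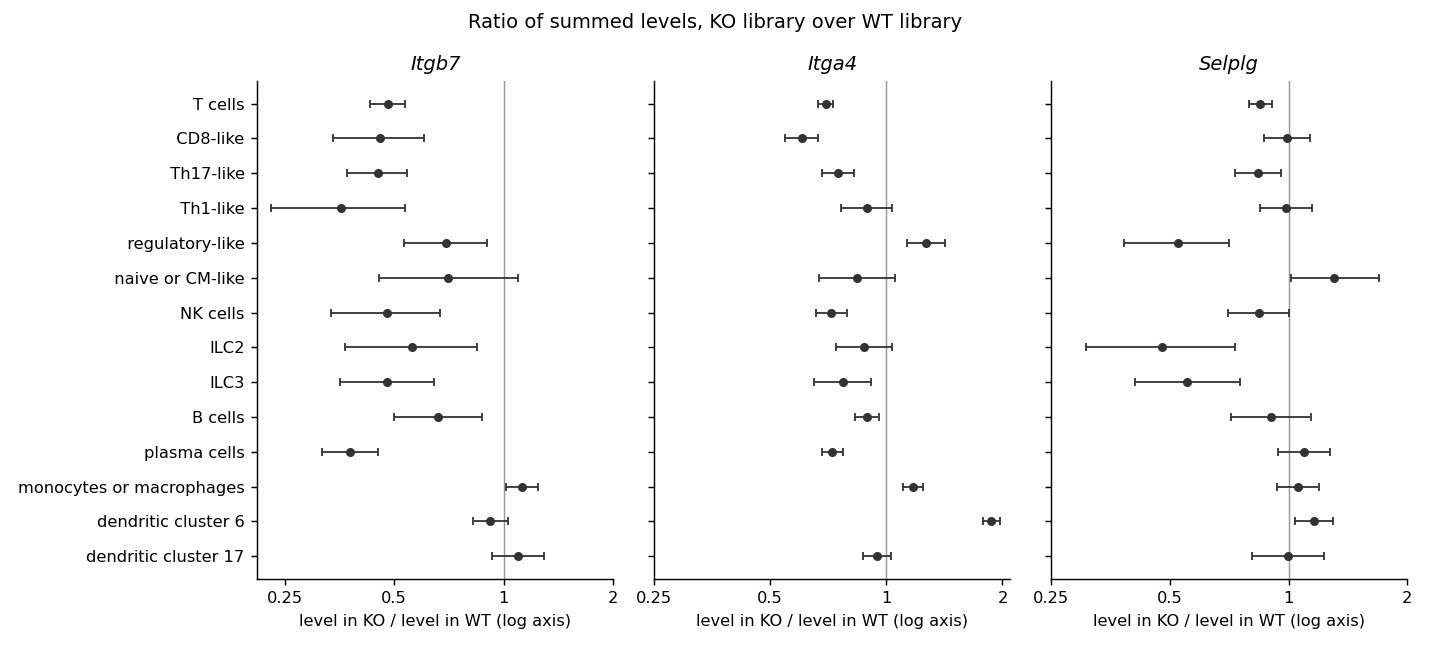
KO:WT ratio of the level (horizontal log axis, 1 meaning equal) of Itgb7, Itga4 and Selplg in lymphocyte classes, T subsets and myeloid groups, with 95% conditional binomial intervals. The Itgb7 points of T cells (0.479), NK cells (0.477), ILC3 (0.477) and plasma cells (0.379) lie left of 1, and those of monocytes or macrophages (1.12) and the dendritic clusters lie near 1.

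The αE chain Itgae, which pairs only with β7, differed in a narrower set of cells. All T cells together had 29.5 and 25.3, a ratio of 0.859 (0.725–1.01) with an interval that spans 1. In CD8-like subcluster 4 it was 122 (180 UMIs) and 41.6 (43 UMIs), a ratio of 0.341 (0.239–0.478), and the thinned share of cells with a UMI was 10.1% and 2.94%. Xist-only cells of that subcluster (52 in WT, 120 in KO) had 53.6 and 28.5 (0.531, 0.228–1.28), and Y-linked-only cells (201 and 30) had 134 and 86.3 (0.645, 0.300–1.23), with both intervals spanning 1. At clustering resolution 2, a CD8-named cluster led by Klrd1 and Itgae held 260 WT and 48 KO cells. An Eomes-led CD8-named cluster held 139 and 196. Both share leading genes with subcluster 4, and how far its values for any receptor reflect such differing shares was not tested. Regulatory-like cells had 104 and 96.2 (0.922, 0.689–1.23), and Th17-like cells 4.97 and 11.1, from 21 and 35 UMIs. Among NK cells, subcluster 2, which was led by Cd8a, Cd3g and Itga1 and in which 82.6% of cells passed a T cell gate, had 104 and 154 (1.48, 0.864–2.60). Dendritic cluster 17 had 172 and 186, and dendritic cluster 6 had 56.1 and 33.7 (0.600, 0.495–0.728). Neutrophils stood at 8.69 and 12.3 and stromal cells at 7.33 and 11.8, so the Itgae levels of Th17-like cells lay at the level of free RNA.

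In WT, T cells with an Itgae UMI had an Itgb7 UMI more often (152 of 336, 45.2%) than other T cells (31.8%). In KO the shares were 30.3% (36 of 119) and 18.1%. After thinning they were 14% (14 of 100 cells, 7.87–22.4) and 9.30% in WT, and 5.41% (2 of 37) and 4.07% in KO. The WT interval spans the share of other T cells but is wide, because few cells kept both UMIs. What part depth has in the difference was therefore not tested.

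The α4 chain Itga4 differed in T cells as well, but below the 1.5-fold threshold. Itga4 was 428 in WT and 297 in KO T cells (0.695, 0.664–0.729), with thinned shares of 30.2% (28.7–31.7) and 19.6% (17.7–21.6) against 10.8% and 12.4% in neutrophils. CD8-like cells had 682 and 411 (0.603, 0.546–0.665). Their Ly6c2-led subcluster, with 32 KO cells, had 816 and 367 (0.450), and subcluster 4 had 469 and 416 (0.889). Th17-like cells had 279.7 and 209 (0.749, 0.680–0.824) and Th1-like cells 259 and 230.2 (0.889). In regulatory-like cells the order was the other way, 529 and 671 (1.27, 1.13–1.42), with a ratio of 1.82 (1.5–2.22) for Xist-only cells against 0.851 (0.671–1.07) for Y-linked-only cells. Over all T cells the Xist-only ratio was 0.817 (0.757–0.882) and the Y-linked-only ratio 0.536 (0.487–0.588). NK cells had 829 and 596 (0.720, 0.656–0.789), and the log2 ratio of Itga4 in NK cells moved from -0.47 to -0.18 without those that pass the T cell gate. Its values by subcluster of that class differed in direction. Subcluster 0, led by Klra4 and Eomes, had 1130.3 and 884 (0.782), and subcluster 1, which met the ILC3 name, had 406 and 560.3 (1.38). Subcluster 2, which met the CD8 T cell name, had 725 and 347 (0.478), a log2 ratio of -1.04 that was -0.05 among Y-linked-only cells. Plasma cells had 378 and 274 (0.724, 0.681–0.770), ILC2 529 and 464 (0.876), ILC3 324 and 249 (0.770) and B cells 265 and 236 (0.890). Dendritic cluster 6 had more Itga4 in KO, 536 and 1003 (1.87, 1.79–1.97), while dendritic cluster 17 had 614 and 581.

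The collagen-binding α1 chain Itga1 was found mainly in CD8-like, Th1-like and Cd8a-led NK subsets. T cells had 33.4 and 23.5 (0.704, 0.593–0.832), but CD8-like cells had 79.2 and 80.8 (1.02, 0.801–1.29) and Th1-like cells 45.4 and 56.0 (1.23, 0.887–1.69). In subcluster 4 it was 119 and 85.2 (0.718, 0.549–0.933). By kind, the CD8-like ratio was 1.27 (0.794–2.07) for Xist-only and 0.364 (0.0979–0.949) for Y-linked-only cells, the latter with 4 KO UMIs. Th1-like Y-linked-only cells had 3 and 10 UMIs (11, 2.84–62.5) against a ratio of 0.905 (0.584–1.36) for Xist-only cells. Th17-like cells had 6.39 and 6.36, by kind 0.309 (0.0906–0.848) from 20 and 5 UMIs and 6.29 (1.25–60.8) from 2 and 8. Naive or central memory-like cells had no UMI in either library, and NK subcluster 2 had 139.6 and 142. Background in B cells was 2.12 and 1.07, and stromal cells, which express α1 themselves, had 173 and 212. Monocytes or macrophages had 18.1 and 8.15 (0.450, 0.332–0.603).

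The chemokine receptor Ccr9 was lower in KO T cells, but unevenly across subsets. Ccr9 stood at 79.1 (1413 UMIs) in WT and 48.7 (379 UMIs) in KO T cells (0.616, 0.549–0.691), and thinned shares were 5.94% (5.2–6.76) and 3.73% (2.87–4.77) against 0.943% and 0.467% in neutrophils. Th17-like cells had 71.0 and 43.5 (0.613, 0.497–0.753), regulatory-like cells 104 and 64.5 (0.623, 0.443–0.863) and subcluster 4 64.4 and 32.0 (0.496, 0.323–0.744). By kind, the regulatory-like ratio of Ccr9 was 1.0 (0.455–2.1) for Xist-only and 0.859 (0.464–1.52) for Y-linked-only cells, and 0.826 (0.552–1.21) over T cells with a Foxp3 UMI, so the 1.5-fold difference was lost in each. The Th17-like ratio was 0.682 (0.501–0.923) for Xist-only and 0.869 (0.581–1.28) for Y-linked-only cells, both short of that fold once 10 is added. In subcluster 4 the Xist-only ratio was 0.389 (0.153–0.99), while the Y-linked-only ratio was 0.846 (0.261–2.14) and below the fold. Th1-like cells had 121 and 119 together (0.987), but the kinds went opposite ways: Xist-only cells had 132 and 90.4 (0.683, 0.499–0.919) and Y-linked-only cells had 98.0 and 188 from 50 and 29 UMIs (1.92, 1.17–3.1). CD8-like cells had 30.4 and 30.1 together (0.990), and by kind 0.425 (0.181–0.95) and 1.6 (0.495–4.0), from 11 and 5 KO UMIs. T cells taken by Cd8 UMIs in place of clusters (770 and 201 cells) had 58.1 and 34.5 (0.594, 0.403–0.852), so the CD8 result depends on how the cells are taken. Xist-only T cells had 94.1 and 44.5 (0.473, 0.393–0.566), while Y-linked-only T cells had 54.1 and 52.7 (0.975, 0.770–1.23). For Ccr9 in T cells the log2 ratio was -0.60, and -0.43, below the 1.5-fold threshold, without the dividing cells, which was also added after the data were seen. Plasmacytoid dendritic cells, few in number (41 and 32) and a cell type known for CCR9, had the highest Ccr9 level of the classes, 959 and 1459 (1.52, 1.31–1.77). Plasma cells had 101 and 80.1 (0.792, 0.705–0.888), ILC2 had 45.4 and 10.2 from 27 and 6 UMIs, and B cells had 12.2 and 6.0, near the 10.9 and 7.04 of neutrophils.

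Gpr15 was nearly undetected. It had 6 UMIs in the WT library, of which 5 were in T cells (3 in Th1-like, 1 in regulatory-like and 1 in dividing cells) and 1 in dividing plasma cells. KO had none, and 0 UMIs in KO T cells allows a level of up to 0.385, from a floor of 3 counts. No ratio is given.

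**Figure D4:**
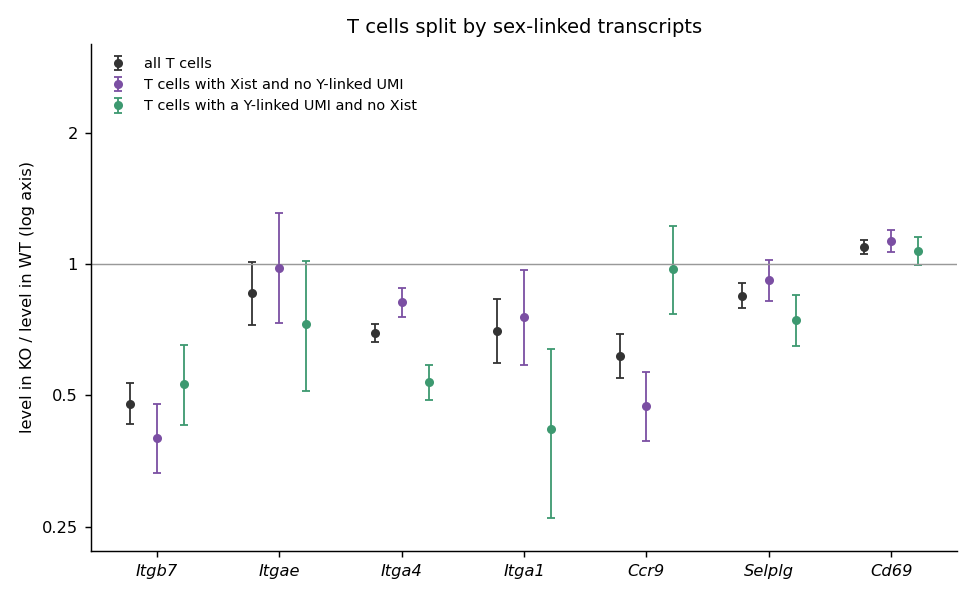
KO:WT ratio of the level (vertical log axis, 1 meaning equal) of 7 receptors in T cells, with 95% conditional binomial intervals. Points are for all T cells (dark grey), cells with Xist and no Y-linked UMI (purple), and cells with a Y-linked UMI and no Xist (green). Itgb7 is lower in KO in both kinds of cell (ratios 0.399 and 0.531), whereas Ccr9 is lower in Xist-only cells (0.473) and near 1 in Y-linked-only cells (0.975).

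Ccr10 was found at appreciable levels in plasma cells, the cells that CCL28 draws to mucosae. They had 146 (1742 UMIs) in WT and 101 (498 UMIs) in KO, a ratio of 0.696 (0.628–0.769). The thinned share with a UMI was 13.2% (11.4–15.1) and 7.91% (5.89–10.3), against 0% and 0.467% in neutrophils. In IgA plasma cells, taken by the heavy chain with most UMIs, the levels were 144 and 106 (0.737, 0.664–0.817). IgG plasma cells (12 and 34 cells) had 18.8 and 14.8 from 2 and 3 UMIs. T cells had 2.46 and 0.514. Immunoglobulin genes took 39.2% of plasma cell UMIs in WT and 46.1% in KO, and the median of all eligible genes in plasma cells was -0.15 on the log2 scale. On the same scale the members' median was -0.38. Of the 6 eligible receptors in plasma cells, 1 (Itgb7) was lower and none higher, where 7.63% of 7994 genes were lower and 2.16% higher. In IgA plasma cells the same count held, 1 of 6, against 5.06% and 2.20% of 7451 genes.

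The selectin ligand Selplg, which lets cells roll on vessel walls, had its lowest KO:WT ratios in ILC2, regulatory-like T cells and ILC3. T cells had 178 and 151 (0.848, 0.792–0.906). Regulatory-like cells had 138 and 72.1 (0.524, 0.383–0.708), but over T cells with a Foxp3 UMI the ratio was 0.695 (0.445–1.05), below the 1.5-fold threshold. CD8-like (246 and 244) and Th1-like cells (228 and 225) differed little and naive or central memory-like cells had 139 and 182 (1.31, 1.01–1.69). ILC2 had 118 and 56.3 (0.478, 0.306–0.733) and ILC3 118 and 65.3 (0.553, 0.408–0.752). B cells (26.3 and 23.7) lay near the free RNA level of stromal cells (21.1 and 23.6), and plasma cells had 46.7 and 51.3.

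Cd69, which marks recently activated and resident cells, did not reach the 1.5-fold threshold in any compared lymphocyte class or subset. T cells had 484 and 529 (1.09, 1.05–1.14), with thinned shares of 37.4% and 36.7% against 6.34% and 8.57% in stromal cells. CD8-like cells had 598 and 602, regulatory-like cells 312 and 294 and naive or central memory-like cells 839 and 679 (0.809). ILC2 had 262 and 355 (1.35, 1.09–1.68), whereas ILC3 had 822 and 641 (0.780, 0.702–0.867), with 0.998 (0.807–1.24) for Xist-only and 0.676 (0.573–0.799) for Y-linked-only ILC3. B cells had 408 and 375 and plasma cells 667 and 627.

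Which receptors passed the fold differed between subsets, and their medians were close to 0 in CD8-like (-0.01) and Th1-like cells (-0.04). In Th17-like cells 2 of 5 eligible receptors were lower (Itgb7 and Ccr9), where 4.30% of 6518 genes were lower and 3.02% higher. That class joins subcluster 0 (569 WT and 269 KO cells) and subcluster 2 (279 and 377). Within each, only Itgb7 was lower, of 5 eligible receptors in subcluster 0 (4.11% of genes lower, 3.59% higher) and 4 in subcluster 2 (6.16% and 5.09%). In Th1-like cells 1 of 6 was lower (2.63% of genes lower, 2.28% higher), in regulatory-like cells 2 of 6, Ccr9 and Selplg (8.03% and 5.30%), and in naive or central memory-like cells 0 of 3 (3.27% and 4.45%). Receptors that were not eligible in a group are left out of its count, as were Itgb7 and Ccr9 in naive or central memory-like cells. In CD8-like cells 2 of 7, Itgb7 and Itga4, were lower (6.44% and 4.12%), and in subcluster 4 3 of 7, Itgb7, Itgae and Ccr9 (5.06% and 4.02%). Among the other lymphocytes, 1 of 4 was lower in NK cells, Itgb7 (4.10% and 3.01%), 1 of 2 in NK subcluster 2, Itga4, lost among Y-linked-only cells (8.70% and 11.6%), 2 of 4 in ILC2 and 2 of 4 in ILC3, Itgb7 and Selplg in each (5.23% and 7.97%, 5.29% and 4.49%), and 0 of 4 in B cells (2.49% and 1.46%). No receptor was higher in any of these.

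Other genes of adhesion and homing in T cells were taken from lists. Of 12 other integrin chains 7 were eligible and 1 was lower in KO, the β1 chain Itgb1, 119.8 and 67.6 (0.564, 0.511–0.620), while Itgav stood at 341 and 442, Itgal at 230.4 and 169.7, and Itga6 at 101 and 130.2. Of 8 genes of egress and lymph node homing 7 were eligible: Klf2 had 197 and 175, Cxcr4 131 and 163, Gpr183 118 and 104, and S1pr1 75.0 and 84.6. These sums cover subsets of differing shares, and Klf2, which drives egress genes, was lower in KO in 4 of the 5 named subsets: CD8-like 246 and 124, Th17-like 136 and 79.5, Th1-like 89.4 and 56.0, and regulatory-like 221 and 128. In naive or central memory-like cells Klf2 had 684 and 712, and in CD8-like subcluster 4 131 and 118. CD8-like cells as a whole also had lower S1pr1 (68.4 and 33.5) and Gpr183 (131 and 70.5). Within subcluster 4, 3 of the 8 genes were eligible, 0 were lower and 1 (Cxcr4) was higher. Over all T cells, the 1 egress or homing gene of this list that was higher was Ccr7 at 45.8 and 75.8 (1.66, 1.49–1.84), named after its values were seen. Among other chemokine and homing receptors, Cxcr3, also named after its values were seen, was lower at 24.5 and 11 (0.451, 0.354–0.570). Cd44 had 804 and 707, Cxcr6 159 and 113, and Ccr2 125 and 97.7.

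Over all T cells, of 12 residency regulators 10 were eligible, with 0 lower and 0 higher at the 1.5-fold threshold: Bhlhe40 had 799.6 and 1071, Smad7 255 and 349, Tgfbr2 244 and 250.2, and Runx3 217 and 219. In narrower groups some passed it: Ahr was lower in Th1-like cells (226 and 126), subcluster 4 (135 and 76.5) and NK cells (131 and 74.8), where Notch1 was higher, while Rara was higher in Th1-like and naive or central memory-like cells and Tgfbr1 and Smad7 in ILC2. These were named after their values were seen. Of 8 genes of selectin ligand synthesis 4 were eligible and none was called, B4galt1 standing at 319 and 392, Tpst2 at 86.1 and 94.0, St3gal4 at 42.4 and 34.3 and St3gal6 at 23.9 and 20.3. Of 8 genes of integrin activation, which switch integrins into their binding form, all 8 were eligible and 2 were lower. Tln1 (talin) had 84.9 and 49.7 (0.585, 0.522–0.655), and Cib1, named after its values were seen, had 23.0 and 10.7 (0.463). Rap1b stood at 677 and 661, Rap1a at 407 and 334 and Apbb1ip at 189.8 and 146. The share of called genes in T cells was 4.30% lower and 2.69% higher over all eligible genes.

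Of 15 ligands and retinoic acid genes, 2 were eligible in T cells and neither was called (Tgfb1, 115 and 132, and Ccl25, 24.3 and 22.6). Ccl25 stood at like levels in stromal cells (23.8 and 15.7), so its UMIs are spread over cell types. Endothelial cluster 24, with 52 WT and 12 KO cells, had Madcam1, the ligand of α4β7, at 512 and 326 (0.637, 0.448–0.886), Selp at 3875 and 2744 (0.708), Sele at 737 and 841 (1.14) and Vcam1, a ligand of α4β1, at 562 and 1114 (1.98, 1.60–2.44). Aldh1a2, which makes retinoic acid, had 16.7 and 24 in dendritic cluster 6 (1.44, 1.08–1.93), and Cdh1, the αE ligand, had 40.7 and 46.2 there.

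For each receptor, the genes with the most similar level across the compared classes and subsets of both libraries were sought among 10143 genes, by Pearson r of log2(level + 10) over 30 points from 15 groups. These points share cells, since T cells contain their subsets and plasma cells the IgA plasma cells, and share library and depth. For Itgb7 they were Sdhb (0.82), Oaz1 (0.82) and Nt5c (0.80), for Itgae Tbc1d4 (0.77), Myo1g (0.74) and Lag3 (0.74), and for Itga4 Pdap1 (0.78), Auh (0.75) and Phb2 (0.73). Itga1 was most like Dapk2 (0.90), Gzmk (0.87) and Ccl5 (0.83), and Ccr9 most like Creb3l2 (0.84), Ly6a (0.82) and Cpox (0.82). Selplg was most like Golm1 (0.83), Hcst (0.83) and Gm8075 (0.82), Cd69 most like Btg3 (0.86), Ccdc117 (0.86) and Desi1 (0.85), and Ccr10 most like Tnfrsf17, Gm16252 and Cacna1h (each 0.99).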

How the data were processed

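The authors deposited raw counts (UMIs per gene and barcode). Per the file headers they come from Cell Ranger 7.0.0, and per the submitters' processing notes the build is GRCm38. Neither source names the annotation release or the intron setting. Barcodes numbered 10958 in WT (64786549 UMIs) and 8794 in KO (49590755 UMIs). Cells with under 200 genes or 500 UMIs (5 and 34) or over 20% mitochondrial UMIs (57 and 79) and Scrublet doublets (637, 5.85%, and 416, 4.79%) were left out. Cells were clustered with scanpy 1.11.5 and leidenalg 0.10.2 (2000 variable genes, 30 components, 20 neighbours, resolution 1). A cluster was taken as T cells where over 50% of cells had at least 2 UMIs of Cd3d, Cd3e, Cd3g, Trac or Trbc2, and otherwise named from marker lists by a rule written after the clusters were seen. Names were rebuilt here and may differ from those of the study.

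Intervals are 95%: exact Poisson for levels, conditional binomial for ratios and Clopper-Pearson for shares. Positions come from GENCODE, in which 54723 of the 54838 gene IDs (99.8%) were found, and start regions from RefSeq. Genes other than the 9 were named by rule, at most the 4 of a list with the highest level and the 3 most alike for each receptor. Some items of the lists are not reported here. The receptors and the lists were chosen with earlier results of these data known. Alternatives covered pseudocount, scaling, thinning, cell filters, doublets, cell kinds, subset weights, clustering and UMI gates. The calculations were tested on simulated counts.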

Additional observations from a re-analysis of the deposited data

How the results depend on the processing

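For Itgb7 in T cells the log2 KO:WT ratio was -0.94, and 17 alternatives gave -1.73 to -0.64, all past the 1.5-fold threshold. Those that moved it by more than counting error were a pseudocount of 50 (-0.64), a mean over cells (-0.85), Y-linked-only cells (-0.81), doublets kept (-0.85), T subclusters weighted alike (-0.72), KO subset shares held at WT (-0.77) and a UMI gate in place of clusters (-1.73), which kept only 100 WT and 99 KO cells because Jchain UMIs were found in 96.4% and 89.9% of T cells. Chosen after seeing the data, the gate without the Jchain condition gave -0.84 and T cells without the dividing ones -0.83. The median of members in T cells (-0.37) was -0.18 with a pseudocount of 50, -0.16 with subclusters weighted alike, -0.16 with WT shares and -0.25 with no filter on low counts. The members lower in KO in T cells (2) were 1 with a pseudocount of 50, a mean over cells, subclusters weighted alike, WT shares or without dividing cells. Ccr9 in Regulatory-like T turned from -0.61 to 0.0038 in Xist-only cells.

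In the lymphocyte groups whose counts the report gives, of 20 receptor differences past the fold, 9 stayed past it in each of their alternatives (Itgb7 in T cells, CD8-like, Th17-like and Th1-like cells, subcluster 4, ILC3, plasma and IgA plasma cells, and Selplg in ILC2), and 33 of 242 alternatives fell below it. These are not separate results, since T cells contain their subsets and plasma cells the IgA plasma cells, and all come from the same libraries. Ccr9 in T cells fell below in 7 of 17 (-0.03 in Y-linked-only cells), in Th17-like cells in 7 of 13 and in regulatory-like cells in 8 of 14. Of 943 alternatives of 80 other results, 785 stayed within counting error, 157 moved and 1 reversed. No paired analysis was possible because each genotype has 1 library. Depth limits Gpr15 and subsets with few KO cells.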
